A study of Mus musculus with 12 samples.

Results

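The NF-kB pathway and its inflammatory targets were followed in mouse breast tumours given radiotherapy, a 4-1BB agonist directed to fibroblasts, both, or neither. The set held 37 genes of the 56884 counted: NF-kB subunits, inhibitors, adaptors and kinases of the pathway, and cytokines and other genes it is known to switch on. Members were chosen by name, with earlier results of these data known. Their shares, set beside those of all genes, are thus not from a set chosen blind to the data. Each symbol matched 1 gene identifier, and all 37 passed the filter on low counts.

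NF-kB is a family of transcription factors that wait in the cytoplasm, bound by inhibitors of the IkB family. Receptors for TNF, IL-1, bacterial products and members of the TNF receptor family such as 4-1BB signal through TRAF adaptors and kinases that mark IkB for destruction, and the freed dimers enter the nucleus and bind kappaB sites. Many of the genes switched on encode inhibitors of the same pathway, which closes a feedback loop. In tumours the targets include cytokines, prostaglandin synthase and adhesion molecules made by cancer cells, fibroblasts and immune cells alike.

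Tumours were of TS/A, a mouse mammary carcinoma line, grown together with cancer associated fibroblasts, and every sample carried the genotype label WT. There were 12 libraries, 3 in each of 4 groups: radiotherapy with muFAP-4-1BBL (RT_FAP41BBL), radiotherapy alone (RT), muFAP-4-1BBL alone (FAP41BBL) and no treatment (control), which the design text calls vehicle. By its name muFAP-4-1BBL joins the ligand of 4-1BB, a TNF receptor family member found on T cells, to an arm for FAP, a fibroblast surface protein. The labels gave no dose, harvest time, animal, age or batch, and did not tie libraries to separate animals, so p-values measured only the spread between these samples. Library totals ran from 34076477 to 42067481 counts. Epithelial keratin Krt8 stood at 231 to 437 CPM and fibroblast markers at 5255 to 11690 CPM in sum, while Epcam stood at 0.0824 to 8.18 CPM, so the defining epithelial adhesion gene was close to absent in some libraries.

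The DNA next to the start sites of the members was searched for the kappaB consensus, the 10-base pattern that NF-kB dimers bind. RefSeq windows on GRCm38.p6, from 250 bases before a start site to 50 bases after it, were found for 29 of the 37 members. A match on either strand was present in 10 of these 29 (34.5%), against 1388 of all 27025 genes with a window (5.14%). 6 stretches are given to show what this looks like in members whose values are described below. Each runs 5′ to 3′ on the strand of its gene from 250 bases before the start site, with the first 20 transcribed bases at its end, and capitals mark kappaB matches. They lie at chr5:30012864-30013133 (Il6, plus strand), chr7:19822736-19823005 (Bcl3, minus), chr11:23770950-23771219 (Rel, minus), chr12:55492628-55492897 (Nfkbia, minus), chr17:35201988-35202257 (Tnf, minus) and chr1:150099781-150100050 (Ptgs2, plus).
Il6: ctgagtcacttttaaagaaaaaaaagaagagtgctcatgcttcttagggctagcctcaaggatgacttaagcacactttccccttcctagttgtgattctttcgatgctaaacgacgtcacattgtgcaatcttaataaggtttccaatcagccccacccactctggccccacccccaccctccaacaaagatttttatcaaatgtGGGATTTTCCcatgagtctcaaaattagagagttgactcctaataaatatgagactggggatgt
Bcl3: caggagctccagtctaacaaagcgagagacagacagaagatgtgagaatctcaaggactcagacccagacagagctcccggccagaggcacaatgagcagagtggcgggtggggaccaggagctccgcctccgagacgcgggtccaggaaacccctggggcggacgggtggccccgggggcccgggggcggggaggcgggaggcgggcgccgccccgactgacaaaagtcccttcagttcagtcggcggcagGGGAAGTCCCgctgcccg
Rel: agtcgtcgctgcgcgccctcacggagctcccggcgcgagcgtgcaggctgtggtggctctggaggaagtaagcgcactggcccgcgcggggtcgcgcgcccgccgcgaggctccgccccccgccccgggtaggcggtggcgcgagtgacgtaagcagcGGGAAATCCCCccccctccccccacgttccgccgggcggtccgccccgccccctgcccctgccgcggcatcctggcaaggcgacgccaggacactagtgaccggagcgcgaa
Nfkbia: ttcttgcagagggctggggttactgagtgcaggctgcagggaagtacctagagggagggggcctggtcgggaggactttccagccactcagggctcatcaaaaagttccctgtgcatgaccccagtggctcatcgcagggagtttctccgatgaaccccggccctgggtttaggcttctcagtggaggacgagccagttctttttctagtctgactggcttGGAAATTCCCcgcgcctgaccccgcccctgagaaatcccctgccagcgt
Tnf: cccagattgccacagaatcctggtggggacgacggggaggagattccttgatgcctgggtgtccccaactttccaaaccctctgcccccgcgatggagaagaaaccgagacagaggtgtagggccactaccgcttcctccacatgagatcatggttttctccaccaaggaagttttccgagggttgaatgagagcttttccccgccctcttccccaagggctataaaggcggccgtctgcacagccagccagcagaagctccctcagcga
Ptgs2: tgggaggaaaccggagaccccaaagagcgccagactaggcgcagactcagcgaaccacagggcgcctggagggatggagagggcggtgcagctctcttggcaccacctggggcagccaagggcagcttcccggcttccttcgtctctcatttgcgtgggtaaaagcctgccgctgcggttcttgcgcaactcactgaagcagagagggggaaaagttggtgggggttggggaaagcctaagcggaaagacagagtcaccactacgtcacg

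In the Il6 stretch the match began 44 bases before the start site and read GGGATTTTCC. The Bcl3 match began 2 bases after the start base and read GGGACTTCCC on the opposite strand. In Rel 2 matches overlapped, GGGAAATCCC 92 bases before the start and GGGGATTTCC on the opposite strand 91 bases before it. Nfkbia held GGGAATTTCC on the opposite strand, 29 bases before its start. Matches were also present in windows of Nfkb2, Nfkbie, Tnfaip3, Tnip1, Sod2 and Ier3, and in Nfkb2, Rel and Tnip1 some of them overlapped.

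No match to these letters was found in the windows of Tnf, the member with the largest change in RT_FAP41BBL against control, and Ptgs2, the member with the smallest p in RT against control. DNA outside the windows was not searched, so a window without a match does not show that a gene lacks kappaB sites. Of the 10 members with a match, 2 rose in RT_FAP41BBL against control (Rel and Bcl3) and 4 rose in RT against control (Il6, Bcl3, Sod2 and Ier3). Of the 19 members with a window and no match, 9 rose in RT_FAP41BBL and 7 in RT. Of the 8 members with no window, 3 rose in RT_FAP41BBL (Nfkbiz, Map3k8 and Cd83) and 0 in RT. Of all genes tested, 5.59% rose in RT_FAP41BBL against control and 6.57% in RT against control. Whether a match went with a rise was not tested. For other motifs, searched on both strands with any overlap counted once per gene, the C/EBP pattern TTGNGNAA was in the windows of 8 of the 29 members (27.6%, against 14.91% of all genes), the AP-1 pattern TGANTCA in 7 (24.1%, against 8.97%), and TATAAA in 8 (27.6%, against 15.67%). A match is a run of letters and was not tested as a binding site.

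Levels of the members were compared per exon length. The highest mean over all libraries was that of Nfkbia, the founding IkB inhibitor, at 69.2 FPKM, followed by Vcam1, an adhesion molecule, at 42.4 FPKM, and Ptges, a prostaglandin E synthase, at 39.9 FPKM. Nfkb2, which encodes the p100 precursor of the non-canonical pathway, averaged 35.7 FPKM. The 3 lowest were Lcn2 at 1.49 FPKM, Il6 at 0.559 FPKM and Il1a at 0.387 FPKM, with 21 to 267, 23 to 85 and 11 to 46 counts per library. Counts were thus small for these 3 genes.

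**Figure D1:**
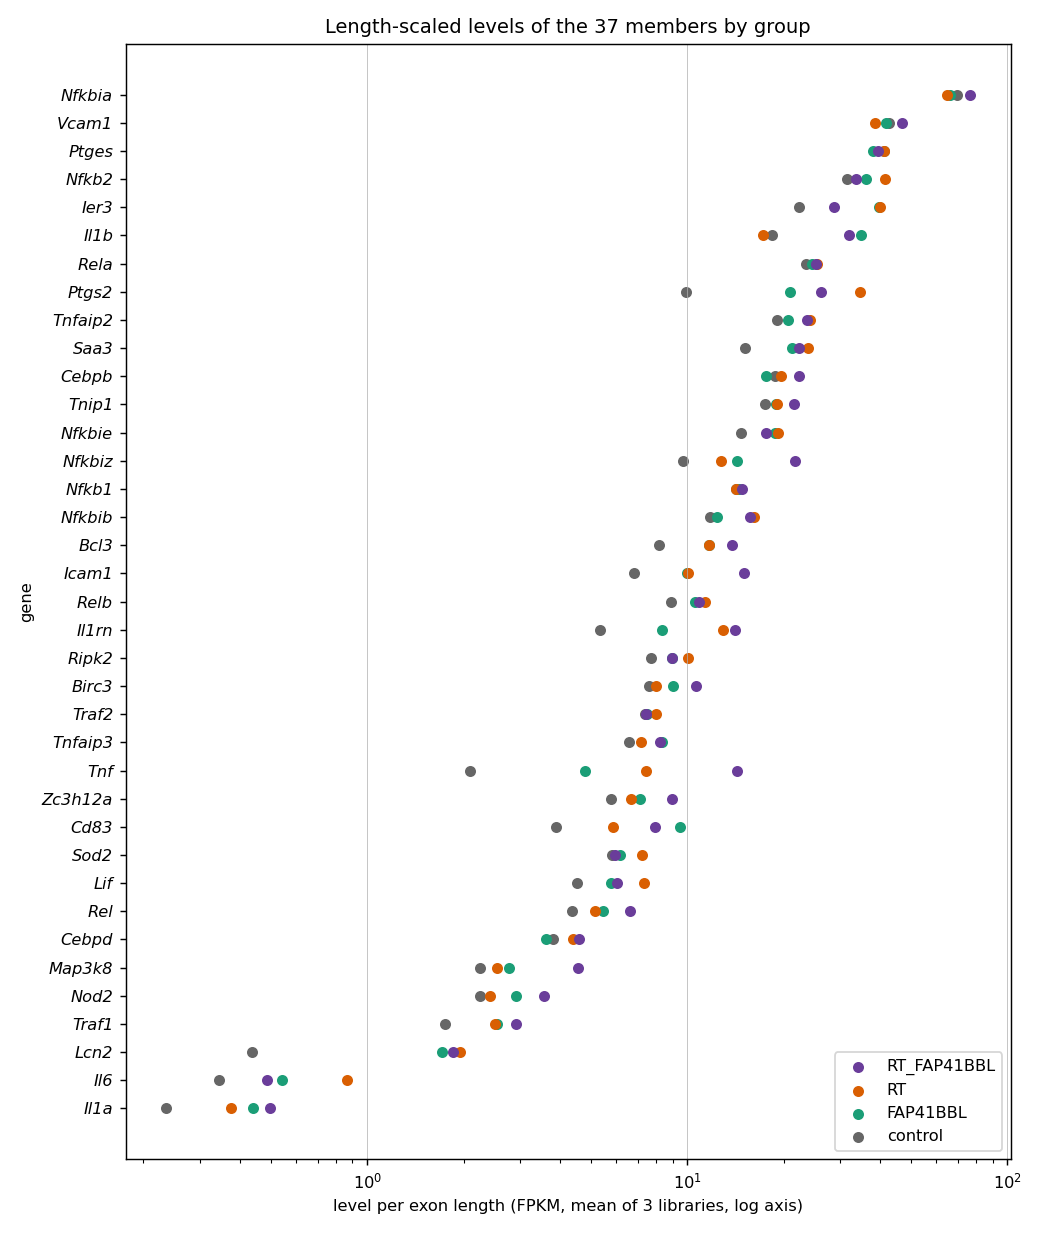
Mean level of each of the 37 members in the 4 groups, in FPKM on a log axis, 1 point per group of 3 libraries, with members ordered by their mean over all libraries. Nfkbia stands highest at 69.2 FPKM with its 4 points close together, while the points of Tnf and Ptgs2 are spread with control at the low end.

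Libraries also differed in tissue content, and this touched several comparisons. Summed CPM of 21 skeletal muscle genes was 805.6 to 1376 in RT_FAP41BBL, 7494 to 16870 in RT, 259.8 to 2676 in FAP41BBL and 256.4 to 953.9 in control, so the RT libraries stood apart. Summed CPM of 12 macrophage and monocyte markers was 4361 to 5424 in RT_FAP41BBL, 2064 to 3395 in RT, 2950 to 3306 in FAP41BBL and 2650 to 3232 in control. The 10 T cell markers summed to 100 to 137.4 CPM in RT_FAP41BBL, 37.07 to 70.39 in RT, 96.22 to 111.7 in FAP41BBL and 56.94 to 95.48 in control. The 10 neutrophil markers summed to 75.63 to 96.15 CPM in RT_FAP41BBL, 35.61 to 76.38 in RT, 36.29 to 53.51 in FAP41BBL and 30.55 to 34.24 in control. Most of the neutrophil sum was Csf3r, and the defining genes Ly6g, Camp and Ngp stood at 0 to 0.0804 CPM. The 10 adipocyte markers summed to 130.8 to 427.1 CPM in RT_FAP41BBL and 206.9 to 359.8 CPM in FAP41BBL. In RT their sum was 107.4 to 320.1 CPM, and in control 47.48 to 128.1 CPM, below both groups given the agonist. The part of fat tissue in the values of the members was not tested. The 10 keratinocyte markers summed to 103.2 CPM in control replicate 2 and to 4.391 to 23.41 CPM in all other libraries. What this did to the comparisons with control was not tested. Since tumours were sequenced whole, more cells of a type and more RNA per cell cannot be told apart.

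**Figure D2:**
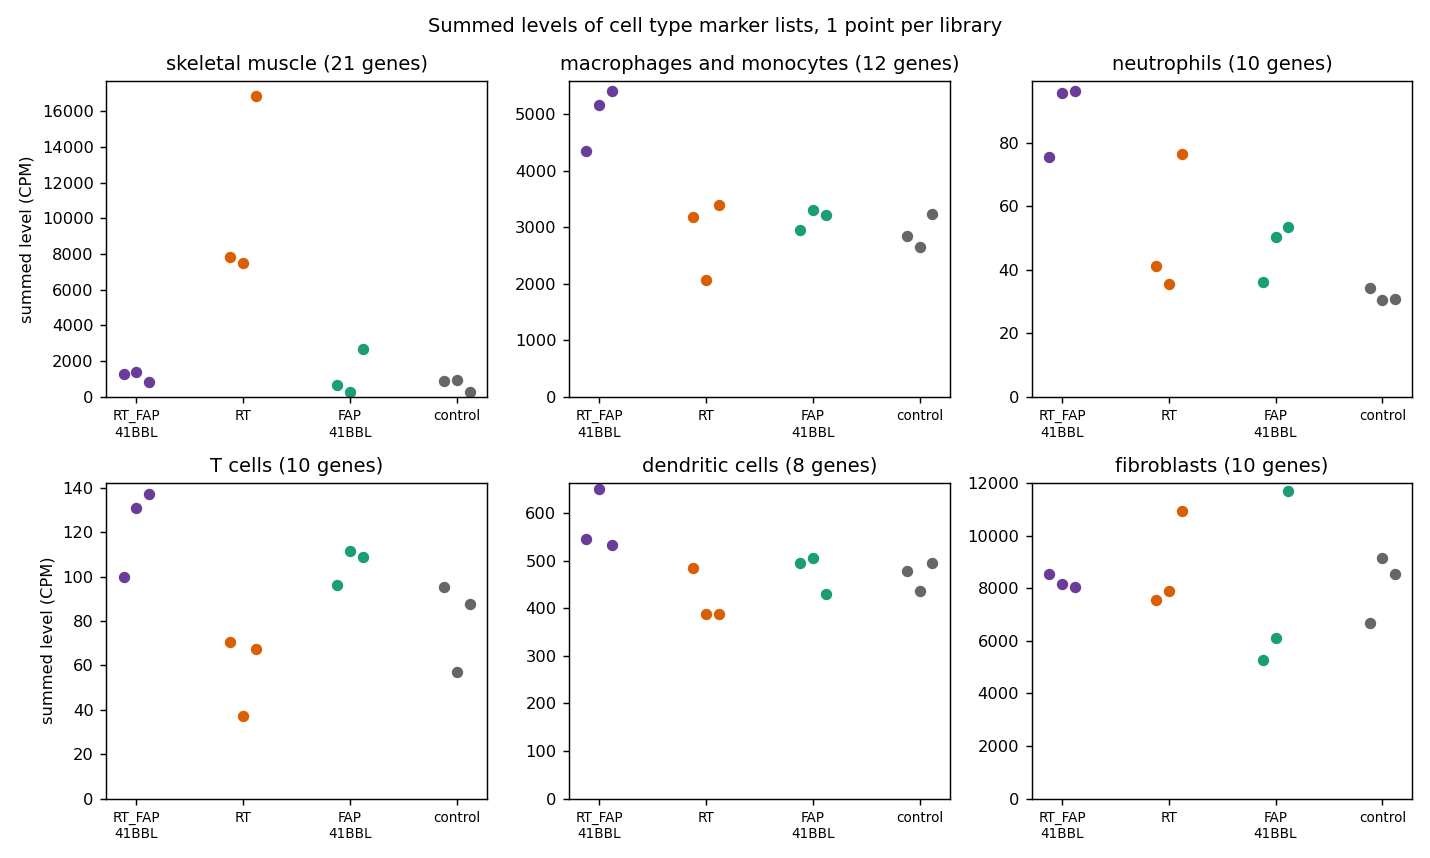
Summed CPM of 6 marker lists in each library, 1 point per library, by group. The 3 RT libraries lie above all others for skeletal muscle (7494 to 16870 CPM), and the 3 RT_FAP41BBL libraries lie above all others for macrophages and monocytes (4361 to 5424 CPM).

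After the combined treatment, some members of nearly every group of the set were higher than in untreated tumours, among them 2 of 6 cytokine genes, 2 of 5 IkB genes, 2 of 3 adaptor genes and 2 of 6 adhesion genes and other targets. In RT_FAP41BBL against control 14 of the 37 members passed the test and all 14 rose, led by Tnf, Lcn2, Ptgs2, Il1rn, Nfkbiz, Icam1, Cd83 and Map3k8. Of all 17757 genes tested 7.91% passed in this comparison, 5.59% higher. The median log2 change of the members was 0.42, against 0.01 over all genes tested, and 36 of 37 were above 0, against 51.4% of all genes. In 21 members every RT_FAP41BBL library lay above every control library, against 20% of all genes. The macrophage and monocyte sum was higher in every RT_FAP41BBL library than in any other library, with 7 of its 12 genes passing the test, and its part in these changes was not tested. Without control replicate 2 the count was 7, and without RT_FAP41BBL replicate 2 it was 8.

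Under radiotherapy alone, 4 of 6 cytokine genes, 1 of 2 prostaglandin genes, 1 of 2 acute phase genes and 2 of 5 IkB genes were higher than in untreated tumours, and none of the 5 NF-kB subunits passed the test. In RT against control 11 members passed and all 11 rose, namely Tnf, Il1rn, Il6, Lif, Ptgs2, Lcn2, Nfkbib, Bcl3, Traf1, Sod2 and Ier3, against 9.62% of all genes passing and 6.57% higher. The median log2 change of the members was 0.36, against 0.00 over all genes, and 32 were above 0, against 49.8% of all genes. Every RT library lay above every control library in 14 members, against 14.9% of all genes. All 21 muscle genes were also higher in each RT library than in each control library. When each library's muscle score entered as a covariate, which runs nearly parallel to the RT group, 1 member (Ptgs2) passed, and 1 of all genes. The median log2 change of the members was then 0.43, with 33 above 0. The count was 4 and 5 without control replicates 1 and 2, and 7 without RT replicate 1 or 3. Over the fits that left out 1 library, 805 to 1987 of all genes passed. When no other groups entered the fit, 6 members and 1064 of all genes passed.

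The agonist alone left no member past the threshold. In FAP41BBL against control 0 of 37 members passed by edgeR's quasi-likelihood test, against 0.00563% of all genes. At an unadjusted p under 0.05 there were 16 members, against 5.17% of all genes. DESeq2 called 4 members (Ptgs2, Lcn2, Ier3 and Cd83) and 48 of all genes. The median log2 change of the members was 0.32, against 0.01 over all genes, and 32 were above 0, against 52.2% of all genes. In 15 members every FAP41BBL library lay above every control library, against 5.7% of all genes, and in 1 (Ptges) every one lay below, against 5.07%. The smallest p-values were those of Ptgs2 (log2 1.08 ± 0.16, adjusted p = 0.067), Lcn2 (1.97 ± 0.40, adjusted p = 0.379) and Cd83 (1.29 ± 0.28, adjusted p = 0.417). The 3 comparisons with control share the same control libraries, so their values are given side by side and are not independent of each other.

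**Figure D3:**
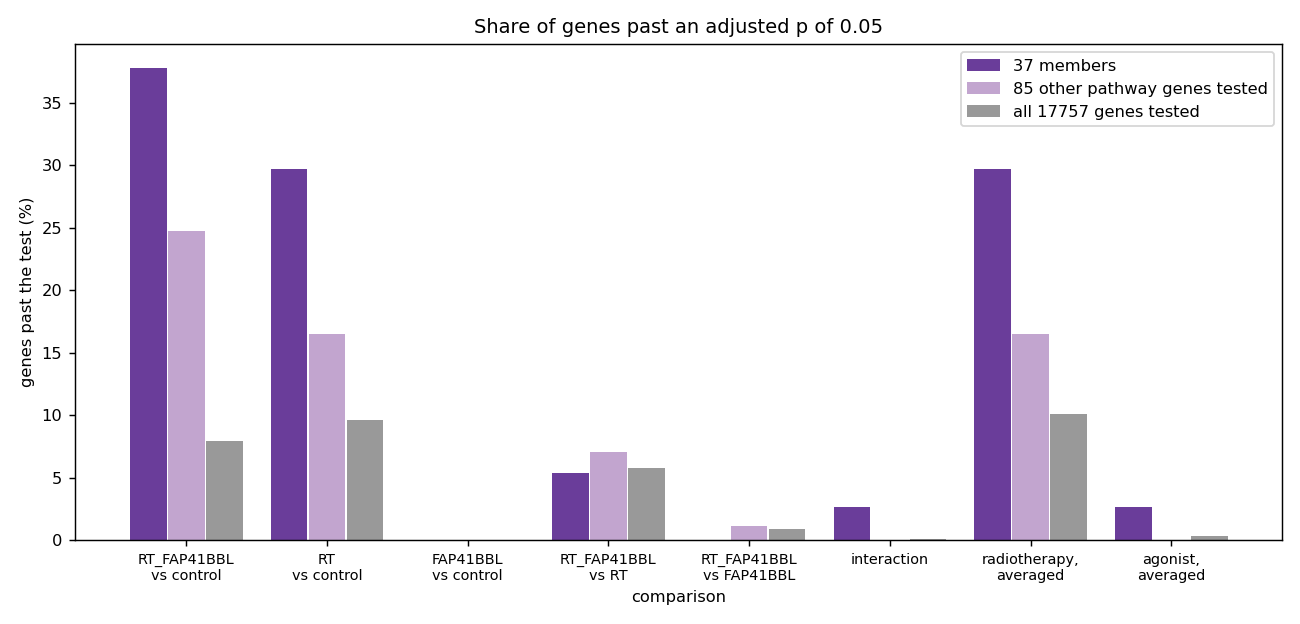
Percentage of genes past an adjusted p of 0.05 in each comparison, as bars for the 37 members, 85 other pathway genes tested and all 17757 genes tested. The members' bar is above the all-gene bar in RT_FAP41BBL against control (37.8%, against 7.91%) and RT against control (29.7%, against 9.62%), and close to it in RT_FAP41BBL against RT (5.41%, against 5.76%).

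**Figure D4:**
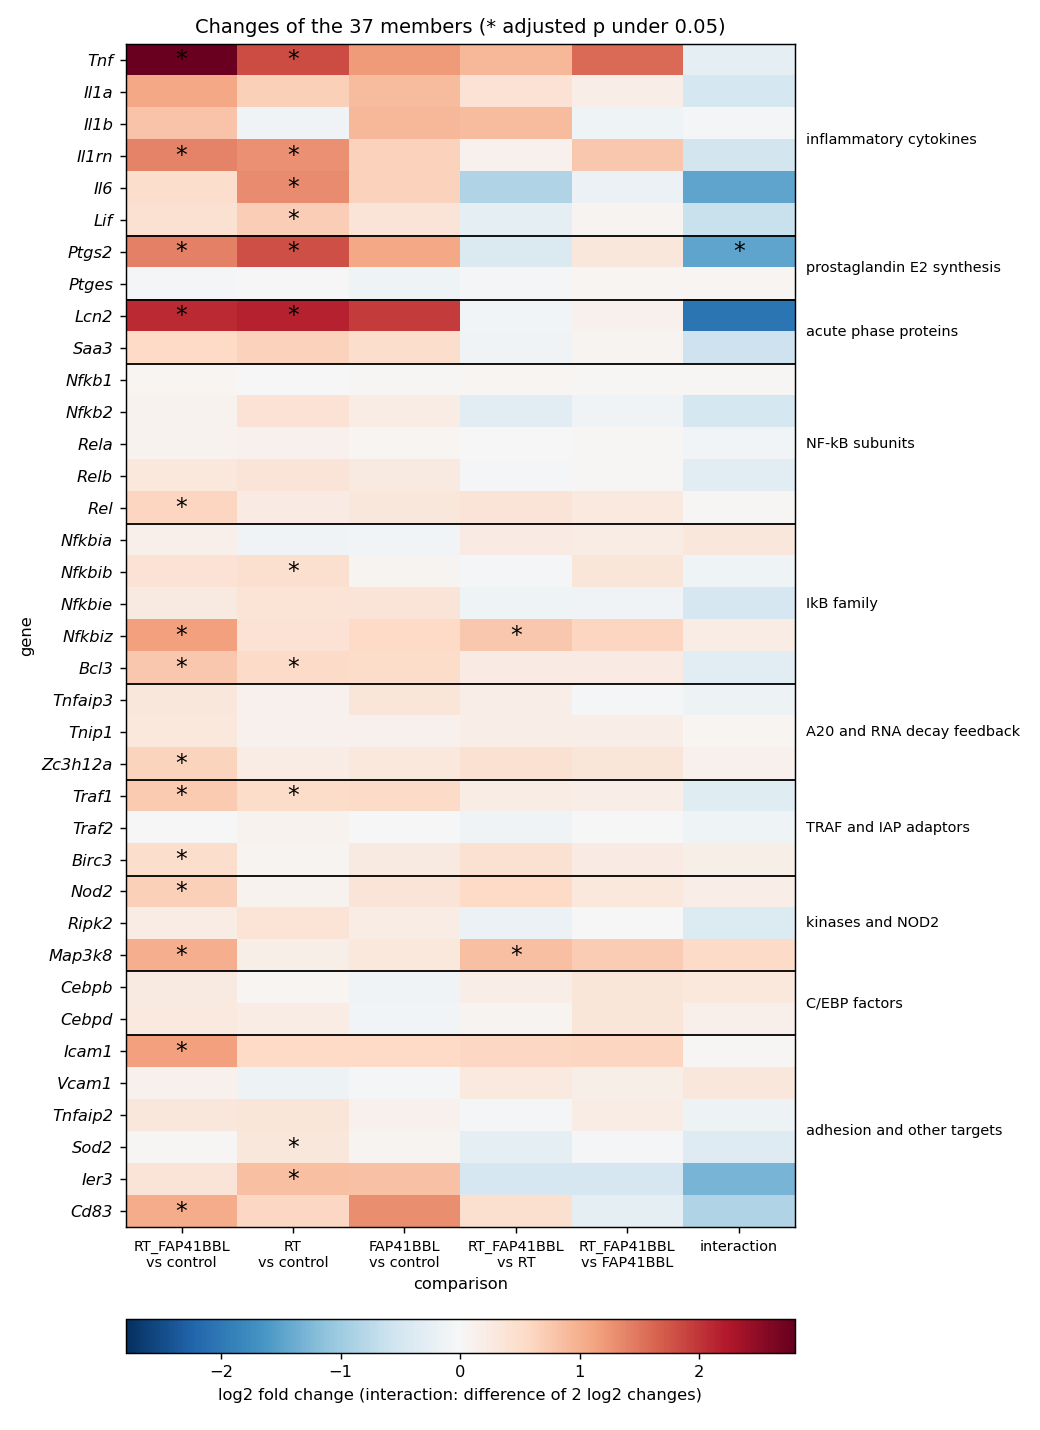
Log2 change of each member in 5 comparisons and the interaction, as colour from blue (lower) to red (higher), with an asterisk where the adjusted p is under 0.05. Asterisks lie mostly among cytokines, Ptgs2, Lcn2 and inhibitors in the comparisons with control, and the lines of Nfkb1, Rela, Traf2 and Ptges stay pale throughout.

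Among the 6 cytokine genes, 2 rose in RT_FAP41BBL against control and 4 in RT against control. Tnf encodes tumour necrosis factor, which both activates NF-kB and is induced by it (chr17:35418357-35420983 on GRCm39). Its level was 16.8, 30.0 and 23.3 CPM in the RT_FAP41BBL libraries, 16.6, 6.84 and 13.1 CPM in RT, 8.10, 9.81 and 5.57 CPM in FAP41BBL, and 2.72, 2.91 and 4.70 CPM in control. Every RT_FAP41BBL library was above all other libraries, the controls were below all others, and the RT and FAP41BBL libraries overlapped. Tnf rose in RT_FAP41BBL against control by 2.76 ± 0.36 on the log2 scale, a 6.79-fold change (adjusted p = 0.00246). It rose by 1.82 ± 0.35 in RT against control (adjusted p = 0.00894), and with the muscle score as a covariate the value was 2.75 ± 0.58 (adjusted p = 0.128). In FAP41BBL against control the value was 1.19 ± 0.35 (adjusted p = 0.732), although no library of these groups overlapped.

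Il1rn encodes the secreted antagonist of the IL-1 receptor (chr2:24226865-24241506). It stood at 81.3, 81.6 and 70.4 CPM in RT_FAP41BBL, 83.5, 47.2 and 83.9 CPM in RT, 37.5, 51.5 and 49.1 CPM in FAP41BBL, and 30.8, 28.3 and 29.6 CPM in control. Controls were the lowest 3 of the 12 libraries, and RT replicate 2 lay within the range of FAP41BBL. The rise was 1.40 ± 0.19 in RT_FAP41BBL against control (adjusted p = 0.00259) and 1.27 ± 0.19 in RT against control (adjusted p = 0.00263).

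Il6 and Lif, cytokines that signal through the shared receptor chain gp130, were highest under radiotherapy alone. Il6 stood at 1.12, 1.66 and 0.751 CPM in RT_FAP41BBL, 2.25, 2.01 and 2.04 CPM in RT, 1.71, 1.01 and 1.22 CPM in FAP41BBL, and 0.646, 1.18 and 0.687 CPM in control. All 3 RT libraries were above the other 9, whose groups overlapped. Il6 rose by 1.32 ± 0.34 in RT against control (adjusted p = 0.0301), and the call was lost without any 1 RT library and without control replicate 1 or 3. In RT_FAP41BBL against control its value was 0.48 ± 0.34 (adjusted p = 0.438).

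Lif stood at 24.3, 29.9 and 24.7 CPM in RT_FAP41BBL, 33.7, 28.8 and 32.9 CPM in RT, 24.7, 26.9 and 23.7 CPM in FAP41BBL, and 15.0, 19.2 and 24.8 CPM in control. RT libraries were above every control library, while the other treated groups overlapped with control replicate 3. The rise in RT against control was 0.69 ± 0.16 (adjusted p = 0.0168), held in 9 of the 12 fits that left out 1 library, and the value in RT_FAP41BBL against control was 0.42 ± 0.16 (adjusted p = 0.125).

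The IL-1 genes themselves did not pass in any comparison. Il1b, made chiefly by myeloid cells, was 53.4 to 68.0 CPM in RT_FAP41BBL, 21.9 to 40.8 CPM in RT, 48.4 to 86.0 CPM in FAP41BBL and 25.8 to 49.7 CPM in control. It was thus high in both groups given the agonist and lower in RT and control, with the agonist averaged over both radiotherapy states at 0.91 (adjusted p = 0.0753). Il1a was 0.917 to 1.10 CPM in RT_FAP41BBL, 0.437 to 1.15 CPM in RT, 0.604 to 1.19 CPM in FAP41BBL and 0.283 to 0.589 CPM in control.

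**Figure D5:**
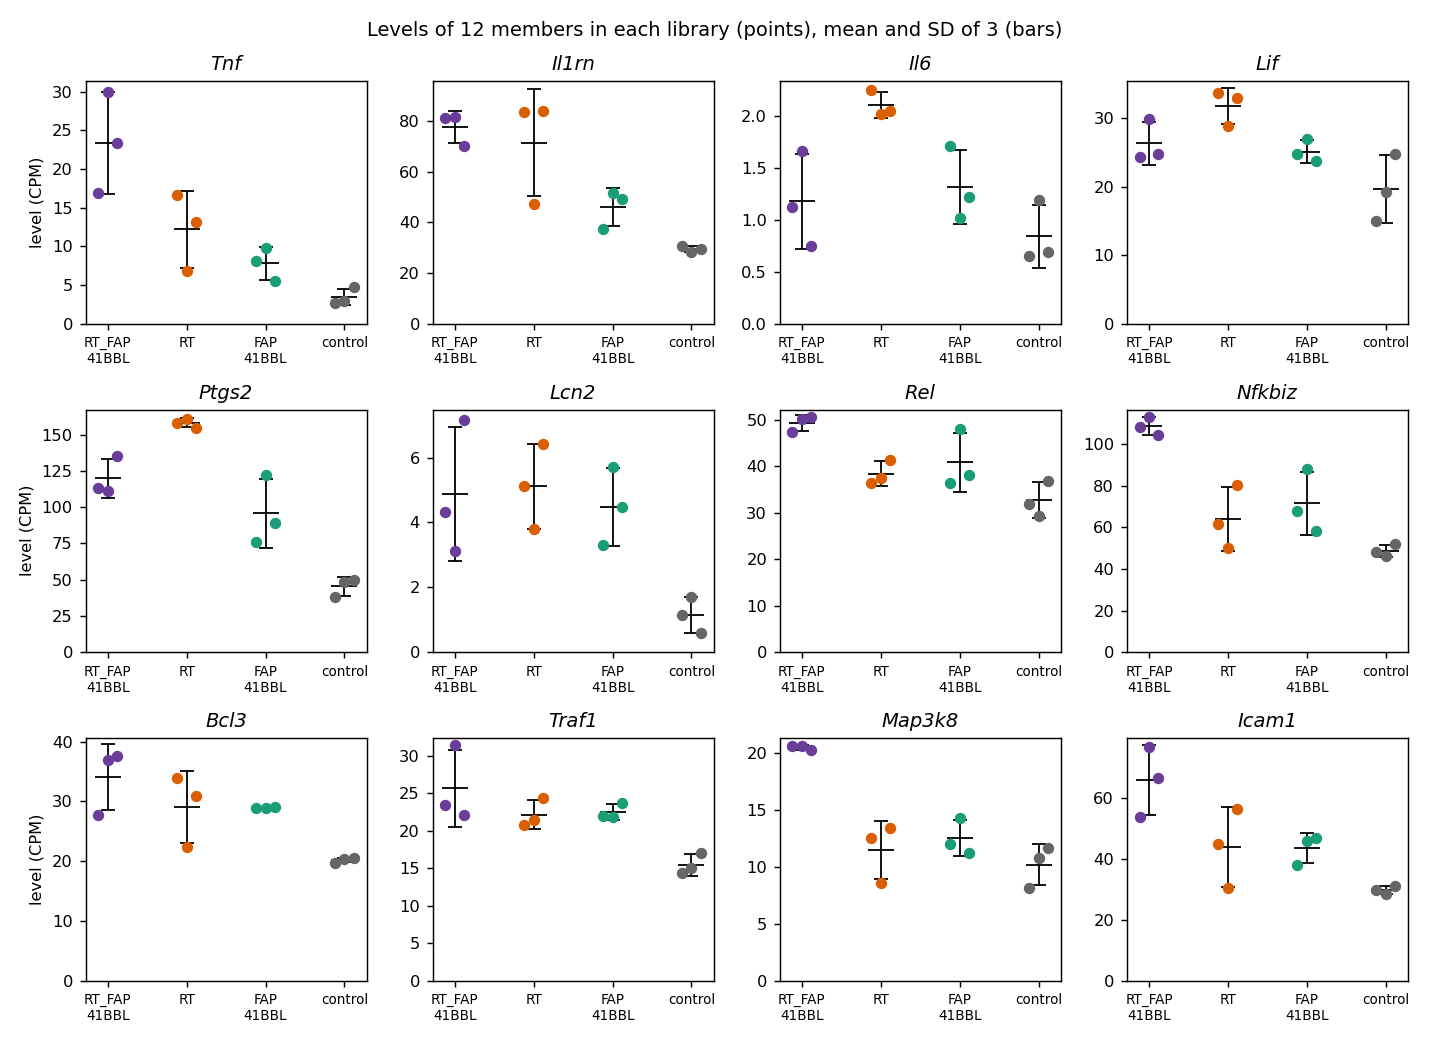
Level in CPM of 12 members in each library (points), with the mean and SD of 3 libraries per group (bars), by group. Tnf, Nfkbiz and Map3k8 are highest in RT_FAP41BBL, Il6 and Ptgs2 are highest in RT, and for Lcn2 all 9 treated libraries lie above the controls.

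Of the prostaglandin E2 genes, the inducible enzyme changed and the terminal one did not pass. Ptgs2 encodes cyclooxygenase 2, the inducible rate-limiting enzyme of prostaglandin synthesis (chr1:149975782-149983978). Its level was 113, 111 and 135 CPM in RT_FAP41BBL, 158, 161 and 155 CPM in RT, 75.8, 122 and 89.3 CPM in FAP41BBL, and 38.0, 48.4 and 49.6 CPM in control. The RT libraries were the 3 highest of all, the controls the 3 lowest, and RT_FAP41BBL overlapped with FAP41BBL. Ptgs2 rose by 1.40 ± 0.16 in RT_FAP41BBL against control (adjusted p = 0.00194) and by 1.80 ± 0.16 in RT against control, a 3.49-fold change (adjusted p = 0.000195). It was the single member still past the test in RT against control with the muscle score as a covariate, at 2.26 ± 0.25 (adjusted p = 0.017). Ptges, which converts the product of Ptgs2 to prostaglandin E2, stayed between 138.9 and 178.6 CPM in all libraries, at -0.06 ± 0.10 in RT_FAP41BBL and 0.00 ± 0.10 in RT against control.

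Lcn2 and Saa3, acute phase proteins secreted in inflammation, differed in how evenly they moved. Lcn2, which binds bacterial iron carriers (chr2:32274645-32278264), stood at 4.33, 3.13 and 7.16 CPM in RT_FAP41BBL, 5.13, 3.81 and 6.43 CPM in RT, 3.30, 5.70 and 4.47 CPM in FAP41BBL, and 1.15, 1.70 and 0.577 CPM in control. All 9 treated libraries were above all 3 controls, and the treated groups overlapped with each other. Lcn2 rose by 2.09 ± 0.40 in RT_FAP41BBL against control (adjusted p = 0.0104) and by 2.16 ± 0.41 in RT against control (adjusted p = 0.0067). Saa3 was 52.6 to 67.0 CPM in RT_FAP41BBL, 33.2 to 97.1 CPM in RT, 39.7 to 79.5 CPM in FAP41BBL and 35.2 to 46.9 CPM in control, and did not pass. Saa3 belongs to a family of similar genes that can share reads.

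Of the 5 subunits of NF-kB itself, Nfkb1 and Rela varied little. Rel, the c-Rel subunit abundant in lymphoid and myeloid cells, was the single one of 5 past the test. It stood at 47.3, 50.1 and 50.5 CPM in RT_FAP41BBL, 36.4, 37.4 and 41.4 CPM in RT, 36.4, 48.1 and 38.0 CPM in FAP41BBL, and 31.9, 29.2 and 36.8 CPM in control. RT_FAP41BBL was above every RT and control library and overlapped with FAP41BBL replicate 2. Rel rose by 0.59 ± 0.12 in RT_FAP41BBL against control (adjusted p = 0.0119), a call lost without RT_FAP41BBL replicate 2 or control replicate 2.

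Nfkb1, which encodes p105 and the p50 subunit cut from it, was 164.7 to 186.5 CPM across all 12 libraries. Its log2 changes were 0.06 ± 0.09 in RT_FAP41BBL, 0.00 ± 0.09 in RT and 0.03 ± 0.09 in FAP41BBL, each against control. Rela, the p65 subunit, was 67.3 to 85.3 CPM. Both ranges were narrow and all groups overlapped. Relb, the partner of p52 in the non-canonical pathway, was 37.7 to 49.7 CPM in RT_FAP41BBL, 41.1 to 49.0 CPM in RT, 34.7 to 45.0 CPM in FAP41BBL and 33.05 to 36.6 CPM in control. Nfkb2 was 144 to 167 CPM in RT_FAP41BBL, 170 to 205 CPM in RT, 148 to 178 CPM in FAP41BBL and 134 to 165 CPM in control, with every RT library above every control library (0.40 ± 0.12, adjusted p = 0.0532). Neither gene passed in any comparison.

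In the IkB family, the nuclear members Nfkbiz and Bcl3 rose and the classical inhibitor Nfkbia did not pass. Nfkbiz encodes IkB-zeta, a nuclear cofactor needed for a second wave of targets such as Il6 and Lcn2 (chr16:55631738-55659262). Its level was 108, 113 and 104 CPM in RT_FAP41BBL, 61.5, 50.2 and 80.6 CPM in RT, 68.1, 88.3 and 58.4 CPM in FAP41BBL, and 48.0, 46.1 and 52.0 CPM in control. The RT_FAP41BBL libraries lay above the other 9, FAP41BBL lay above control, and RT overlapped with both FAP41BBL and control. Nfkbiz rose by 1.16 ± 0.17 in RT_FAP41BBL against control (adjusted p = 0.00288), with 0.40 ± 0.17 in RT (adjusted p = 0.169) and 0.55 ± 0.17 in FAP41BBL (adjusted p = 0.732).

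Bcl3, another nuclear IkB protein that binds p50 and p52 on DNA, stood at 27.8, 36.99 and 37.6 CPM in RT_FAP41BBL, 33.9, 22.3 and 30.9 CPM in RT, 28.8, 28.8 and 29.0 CPM in FAP41BBL, and 19.8, 20.3 and 20.5 CPM in control. All treated libraries were above all controls. Bcl3 rose by 0.76 ± 0.15 in RT_FAP41BBL against control (adjusted p = 0.0107) and by 0.53 ± 0.15 in RT against control (adjusted p = 0.0444), and this second call was lost in 10 of the 12 fits that left out 1 library.

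Nfkbib, which encodes the cytoplasmic inhibitor IkB-beta, stood at 29.9, 40.1 and 31.9 CPM in RT_FAP41BBL, 37.8, 32.99 and 34.5 CPM in RT, 27.9, 23.6 and 29.3 CPM in FAP41BBL, and 27.98, 24.2 and 24.4 CPM in control. Both irradiated groups were above both groups without radiotherapy. It rose by 0.46 ± 0.13 in RT against control (adjusted p = 0.0407), a call that held in 4 of the 12 fits that left out 1 library and was lost with the muscle score as a covariate, where the value was 0.18. It stood at 0.41 ± 0.13 in RT_FAP41BBL against control (adjusted p = 0.0669). Averaged over both agonist states, radiotherapy gave 0.40 ± 0.09 (adjusted p = 0.0161). Nfkbia was 110 to 144 CPM in RT_FAP41BBL, 99.5 to 113 CPM in RT, 92.5 to 118 CPM in FAP41BBL and 101 to 117 CPM in control, and Nfkbie, for IkB-epsilon, ran from 38.9 to 67.3 CPM over all libraries. Groups overlapped for both genes.

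Of the 3 feedback genes outside the IkB family, Zc3h12a rose in 1 comparison. It encodes regnase-1, a nuclease that degrades inflammatory mRNAs such as that of Il6, and stood at 22.3, 28.4 and 26.6 CPM in RT_FAP41BBL, 22.4, 14.8 and 20.6 CPM in RT, 21.0, 20.1 and 20.4 CPM in FAP41BBL, and 13.6, 16.0 and 20.5 CPM in control. RT_FAP41BBL was above every FAP41BBL and control library. The rise in RT_FAP41BBL against control was 0.63 ± 0.17 (adjusted p = 0.044), close to the threshold, and held in 3 of the 12 fits that left out 1 library. Tnfaip3, the ubiquitin-editing enzyme A20, was 42.3 to 67.2 CPM, and its partner Tnip1 was 56.2 to 83.6 CPM, and neither passed in any comparison.

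Among the adaptors, Traf1 and Birc3 rose and Traf2 did not pass. Traf1, an adaptor that binds 4-1BB and other TNF receptors, stood at 23.4, 31.5 and 22.1 CPM in RT_FAP41BBL, 20.7, 21.4 and 24.3 CPM in RT, 21.9, 21.9 and 23.7 CPM in FAP41BBL, and 14.3, 15.0 and 17.0 CPM in control. Every treated library was above every control, and the treated groups overlapped. It rose by 0.73 ± 0.14 in RT_FAP41BBL against control (adjusted p = 0.00827) and by 0.52 ± 0.14 in RT (adjusted p = 0.0312), which held in 11 and 8 of the 12 fits that left out 1 library. FAP41BBL gave a value of similar size that missed the threshold (0.55 ± 0.14, adjusted p = 0.579).

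Birc3, the ubiquitin ligase cIAP2, stood at 48.3, 59.0 and 52.7 CPM in RT_FAP41BBL, 36.1, 37.3 and 46.4 CPM in RT, 41.8, 46.4 and 47.6 CPM in FAP41BBL, and 36.3, 37.2 and 40.9 CPM in control. RT_FAP41BBL was above the other 9 libraries, and FAP41BBL was above control. The rise was 0.48 ± 0.12 in RT_FAP41BBL against control (adjusted p = 0.0247), and it held in 8 of the 12 fits that left out 1 library. Traf2, which recruits cIAP proteins to receptors, stayed at 35.2 to 45.0 CPM in all libraries with log2 values between -0.11 and 0.10 in every comparison.

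Of the kinases and NOD2, Map3k8 and Nod2 rose in the combined group. Map3k8 encodes the kinase TPL2, which is held by p105 and carries inflammatory signals to the ERK pathway. It stood at 20.5, 20.6 and 20.2 CPM in RT_FAP41BBL, 12.5, 8.56 and 13.3 CPM in RT, 11.96, 14.3 and 11.2 CPM in FAP41BBL, and 8.11, 10.8 and 11.6 CPM in control. The RT_FAP41BBL libraries were nearly equal and lay above the other 9, whose groups overlapped. The rise was 1.01 ± 0.18 in RT_FAP41BBL against control (adjusted p = 0.0068), with 0.17 ± 0.18 in RT and 0.30 ± 0.18 in FAP41BBL.

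Nod2, a sensor of bacterial wall fragments that activates NF-kB, stood at 13.9, 21.8 and 18.0 CPM in RT_FAP41BBL, 11.3, 9.68 and 15.6 CPM in RT, 14.7, 14.1 and 14.9 CPM in FAP41BBL, and 10.8, 10.7 and 12.5 CPM in control. Both groups with the agonist were above control. Its rise of 0.66 ± 0.19 in RT_FAP41BBL against control sat at the threshold (adjusted p = 0.0495) and held in 3 of the 12 fits that left out 1 library. Ripk2, the kinase that acts below NOD2, was 20.4 to 33.2 CPM and did not pass in any comparison.

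The factors Cebpb and Cebpd, which bind beside NF-kB at many inflammatory genes, did not pass in any comparison. Cebpb was 26.3 to 38.2 CPM in RT_FAP41BBL, 20.01 to 44.0 CPM in RT, 25.7 to 26.9 CPM in FAP41BBL and 26.1 to 30.9 CPM in control, and Cebpd ran from 9.46 to 23.2 CPM over all libraries. For both genes the lowest and the highest library belonged to RT.

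Of the 6 adhesion genes and other targets, 2 rose in RT_FAP41BBL against control and a different pair in RT against control. Icam1, the endothelial and antigen-presenting cell ligand of leukocyte integrins, stood at 53.8, 76.8 and 66.6 CPM in RT_FAP41BBL, 44.9, 30.4 and 56.3 CPM in RT, 38.0, 45.7 and 46.8 CPM in FAP41BBL, and 29.7, 28.4 and 30.9 CPM in control. RT_FAP41BBL was above every FAP41BBL and control library, and RT replicate 2 lay within the control range. Icam1 rose by 1.15 ± 0.19 in RT_FAP41BBL against control (adjusted p = 0.00566), with 0.56 ± 0.19 in RT (adjusted p = 0.0893) and 0.55 ± 0.19 in FAP41BBL (adjusted p = 0.872). Vcam1, its counterpart for lymphocyte integrins, was 408.9 to 423.8 CPM in RT_FAP41BBL, 281.7 to 407.4 CPM in RT, 278.6 to 479.1 CPM in FAP41BBL and 277.2 to 487.4 CPM in control, and did not pass.

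Cd83, a surface protein of mature dendritic cells and activated lymphocytes, was highest where the agonist was given alone. It stood at 16.0, 23.2 and 22.1 CPM in RT_FAP41BBL, 22.6, 9.61 and 12.9 CPM in RT, 26.1, 23.2 and 24.2 CPM in FAP41BBL, and 9.74, 7.88 and 12.3 CPM in control. FAP41BBL lay above control and touched the top of RT_FAP41BBL (at most 23.17 CPM in RT_FAP41BBL and at least 23.20 CPM in FAP41BBL), while RT overlapped with control. Cd83 rose by 1.03 ± 0.27 in RT_FAP41BBL against control (adjusted p = 0.0405), a call that held in 3 of the 12 fits that left out 1 library and was lost with no filter on low counts. The larger value in FAP41BBL against control, 1.29 ± 0.28, missed the threshold (adjusted p = 0.417). Summed dendritic cell markers were 533.0 to 650.3 CPM in RT_FAP41BBL, 386.9 to 485.0 CPM in RT, 430.3 to 505.6 CPM in FAP41BBL and 437.0 to 495.8 CPM in control, and their part in the Cd83 values was not tested.

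Sod2 and Ier3, targets that protect cells from death, were raised under radiotherapy alone. Sod2, the mitochondrial superoxide dismutase, stood at 56.6, 65.3 and 56.8 CPM in RT_FAP41BBL, 77.3, 67.2 and 72.6 CPM in RT, 60.9, 61.0 and 62.9 CPM in FAP41BBL, and 59.4, 58.1 and 57.0 CPM in control. All 3 RT libraries were above the other 9. The rise in RT against control was 0.31 ± 0.09 (adjusted p = 0.0393), a call that held in 2 of the 12 fits that left out 1 library. Ier3, an early response gene, stood at 34.7, 32.8 and 29.9 CPM in RT_FAP41BBL, 57.4, 42.1 and 36.5 CPM in RT, 57.6, 39.0 and 38.0 CPM in FAP41BBL, and 21.6, 26.8 and 27.3 CPM in control. Either treatment alone lay above the combination, and the combination above control, with no overlap. Ier3 rose by 0.85 ± 0.19 in RT against control (adjusted p = 0.0155), held in 10 of those 12 fits, and stood at 0.83 ± 0.19 in FAP41BBL (adjusted p = 0.495) and 0.36 ± 0.19 in RT_FAP41BBL (adjusted p = 0.268). Tnfaip2 was 76.6 to 142 CPM and did not pass in any comparison.

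Adding the agonist to radiotherapy raised 2 members. In RT_FAP41BBL against RT, Nfkbiz (0.76 ± 0.17, adjusted p = 0.0247) and Map3k8 (0.83 ± 0.18, adjusted p = 0.0217) rose, against 5.76% of all genes passing and 3.36% higher, a share close to that of the members. Birc3 came next at 0.42 ± 0.12 (adjusted p = 0.0529), and Il1b stood at 0.89 ± 0.29 (adjusted p = 0.0998). Median change was 0.12, with 21 members above 0, against 49.7% of all genes, and 16 below. In 8 members every RT_FAP41BBL library lay above every RT library, against 14.5% of all genes. Ptgs2, Il6, Nfkb2, Sod2 and Ier3 were lower in every RT_FAP41BBL library than in every RT library. These 5 of 37 are a share close to the 13.4% of all genes, and none of the 5 passed. T cell markers were higher in the combined group, with all 10 not overlapping, against 14.5% of all genes not overlapping and higher. Of these 10 markers 5 were past the test, macrophage markers had 7 of 12 past the test, and all 21 muscle genes were lower. Both calls were lost with the muscle score as a covariate, without RT replicate 2 and without any 1 RT_FAP41BBL library, and without RT replicate 1 Map3k8 alone passed.

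Adding radiotherapy to the agonist gave no member past the threshold. In RT_FAP41BBL against FAP41BBL 0 of 37 passed by edgeR's quasi-likelihood test, against 0.946% of all genes, and 8 had an unadjusted p under 0.05, against 13.5% of all genes. DESeq2 called Tnf, Il1rn, Nfkbiz and Map3k8, and 783 of all genes. The leading values were Tnf at 1.58 ± 0.34 (adjusted p = 0.0546), Map3k8 at 0.71 ± 0.18 (adjusted p = 0.0804) and Il1rn at 0.76 ± 0.19 (adjusted p = 0.0853), each with every RT_FAP41BBL library above every FAP41BBL library. Ier3 lay below in every library, at -0.47 ± 0.19, and Cd83 was at -0.26 ± 0.27 with its groups nearly touching. Tnf, Il1rn and Map3k8 passed in a fit of the 2 groups alone and without RT replicate 2.

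The interaction, the radiotherapy effect on the agonist background less that on the untreated one, asks whether the agonist altered the response to radiotherapy, and 1 member passed. Ptgs2 had a value of -1.48 ± 0.23 (adjusted p = 0.0311), against 0.152% of all genes passing and 0.124% lower. Its group means were 119.9 ± 13.2 CPM in RT_FAP41BBL, 158.2 ± 3.08 CPM in RT, 95.8 ± 23.9 CPM in FAP41BBL and 45.3 ± 6.39 CPM in control (SD, n = 3 each). Radiotherapy thus raised Ptgs2 in the absence of the agonist by 1.80, while in its presence the value was 0.32 ± 0.16 (adjusted p = 0.4). Ier3 followed at -1.31 ± 0.26 (adjusted p = 0.0723) and Lcn2 at -2.04 ± 0.55 (adjusted p = 0.133). All 6 cytokines had interaction values below 0, between -1.48 and -0.03, none past the test. The median over the members was -0.14, against 0.00 over all genes. Of the 37 members 14 were above 0, against 50.1% of all genes. The Ptgs2 call held in 3 of the 12 fits that left out 1 library and was lost with the muscle score as a covariate (-1.84 ± 0.25, adjusted p = 0.152).

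Averaged over both agonist states, radiotherapy raised 11 members, against 10.1% of all genes passing and 6.51% higher: Tnf, Il1rn, Lif, Ptgs2, Lcn2, Nfkbib, Nfkbiz, Bcl3, Traf1, Map3k8 and Icam1. The largest were Tnf at 1.70 ± 0.25 (adjusted p = 0.00214), Lcn2 at 1.14 ± 0.28 (adjusted p = 0.023) and Ptgs2 at 1.06 ± 0.11 (adjusted p = 0.000562). For Lcn2 this average joined unlike states. Its means were 5.12 CPM in RT and 1.14 CPM in control, but 4.87 CPM in RT_FAP41BBL and 4.49 CPM in FAP41BBL. With the muscle score as a covariate 2 members (Tnf and Ptgs2) passed. The calls of Lif, Bcl3, Map3k8 and Traf1 held in 1, 2, 3 and 5 of the 12 fits that left out 1 library. Averaged over both radiotherapy states, the agonist raised 1 member, against 0.349% of all genes passing and 0.22% higher, which was Nfkbiz at 0.66 ± 0.12 (adjusted p = 0.048). Map3k8 (0.57 ± 0.13) and Cd83 (0.87 ± 0.19) followed, each with an adjusted p of 0.065. The Nfkbiz call sat at the threshold and was lost in 10 of the 12 fits that left out 1 library.

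Other genes of the pathway were taken from 5 lists of receptors, adaptors and ubiquitin machinery, kinases, other inhibitors and other inflammatory targets, of which 85 of 87 genes were tested. These lists, too, were chosen with earlier results of these data known. In RT_FAP41BBL against control 20 rose and 1 fell, so that 24.7% passed, against 7.91% of all genes passing and 5.59% higher. Among 17 receptor genes Tlr2 (0.66), the costimulatory receptor gene Cd40 (1.22) and Tnfrsf11a, which encodes RANK (0.63), rose, and Il1r1, the signalling receptor of IL-1, fell by 0.55. Among 23 adaptors 5 rose, including the ubiquitin ligase subunit Rnf31 (0.50), the Toll-like receptor adaptor Myd88 (0.48), the inhibitory Irak3 (1.15) and the ligase Peli1 (0.45). Ikbke, for the kinase IKK-epsilon, was the single one of 7 kinases past the test (0.94). Of 10 other inhibitors 4 rose, Tnfaip8l2 (1.01), Socs3 (0.71), Nfkbid (0.65) and Tnip3 (0.81), and of 28 other targets tested 7 rose, including Plau (0.62), Clec4e (1.02), Il12b (1.61) and Gadd45b (0.77).

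In RT against control 12 of the 85 rose and 2 fell, so that 16.5% passed, against 9.62% of all genes passing and 6.57% higher. Other targets made up 8 of the rises, led by the urokinase gene Plau (0.85) and its receptor gene Plaur (0.76), the cytokine gene Il11 (1.90) and Clec4e (1.11), a sensor of dead cells. Receptor genes went both ways, with Tnfrsf12a (0.68) and Tlr2 (0.38) higher and Il6ra (-0.43) and Il1r1 (-0.34) lower. Tank (0.41) and Tnip3 (0.78) also rose, and none of the 7 kinases passed. In FAP41BBL against control 0 of 85 passed by edgeR's quasi-likelihood test, with 19 at an unadjusted p under 0.05, against 5.17% of all genes.

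In RT_FAP41BBL against RT 6 of the 85 rose and none fell: Tnfaip8l2 (1.01), Ptger4, a receptor of prostaglandin E2 (0.78), Card9 (0.77), Ikbke (0.73), Il6ra (0.63) and Tnip2 (0.40). These 6 are 7.06% of the list, a share close to the 5.76% of all genes passing. Over the whole list of 85, every RT_FAP41BBL library lay above every RT library in 24 genes, against 14.5% of all genes. Every one lay below in 9, against 13.4%. None of the 28 other inflammatory targets passed there. Of these, 17 were below 0 and 11 above it, against 49.7% of all genes above 0. In RT_FAP41BBL against FAP41BBL Il1r1 was the single gene past the test and was lower, at -0.47 ± 0.09 (adjusted p = 0.04). In the interaction 0 of 85 passed by edgeR's quasi-likelihood test and 17 had an unadjusted p under 0.05, against 14.1% of all genes. Of the 28 other targets 23 were below 0 and 5 above it, against 50.1% of all genes above 0.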

How the data were processed

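Stranded mRNA sequencing covered 12 tumour samples, grouped by the treatment in the submitters' labels. Deposited files hold unnormalized counts for each gene. featureCounts 1.6.0 made them from read pairs over exons on the reverse strand with GENCODE M33, per the file headers. The submitters' processing notes name the GRCm39 build, FastQC 0.11.8, STAR 2.7.9a, limma and edgeR. Symbols came from GENCODE M21 by gene identifier (51948 of 56884 genes, 91.32%), and coordinates of genes are those in the authors' files.

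The analysis used edgeR 4.0.16 in R 4.3.3: filterByExpr (17757 genes kept), TMM, 1 model of the 4 groups over all 12 libraries (8 residual degrees of freedom, common biological coefficient of variation 0.205), and robust quasi-likelihood tests, adjusted by Benjamini and Hochberg's method over all genes, at 0.05. Adjusted p-values are from this test and errors of log2 changes are standard errors. CPM used TMM library sizes, and FPKM is CPM per kilobase of exon. The steps were tested on simulated data. No 2 libraries of a group agreed within sampling noise. Precision followed from totals of 34076477 to 42067481 counts and 3 libraries per group.

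Members and lists were chosen with earlier results of these data known. Values per library are given for members past the test in any of 8 contrasts, and in a contrast with under 3 of these, for the 3 with the smallest p. Of each pathway list, up to 4 genes with the smallest p are named. Il1a, Il1b and others outside this are given as ranges. Alternatives were RLE factors, no filter, DESeq2 1.42.0, the replicate number as a block, the skeletal muscle score (mean log2 CPM of 21 genes, prior count 2) as a covariate, the 2 compared groups alone and each library left out.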

Additional observations from a re-analysis of the deposited data

Results flagged for a closer look

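The effect of radiotherapy on Ptgs2, the cyclooxygenase 2 gene, passed the test of a difference between tumours with and without the agonist, narrowly. The interaction was -1.48 ± 0.23 on the log2 scale (adjusted p = 0.0311 by edgeR's quasi-likelihood test). Radiotherapy gave 0.32 ± 0.16 with the agonist and 1.80 ± 0.16 without it. The RT libraries, which hold the highest Ptgs2 values, also hold the highest muscle marker sums, and with the muscle score as a covariate the interaction was -1.84 ± 0.25 (adjusted p = 0.152). The call held in 3 of the 12 fits that left out 1 library, with adjusted p between 0.019 and 0.112.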

How the results depend on the processing

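Of 901 alternative values computed for 51 member results past the test or named, 901 kept their sign. These results were picked by their p in the same data, and the alternatives refit the same libraries or fewer. Kept signs were thus close to assured, and the other member results were not counted here. Of 40 member results past the test, 14 stayed past it in every fit that left out 1 library. These were Tnf, Il1rn, Ptgs2 and Lcn2 in RT_FAP41BBL and in RT against control, Nfkbiz, Map3k8 and Icam1 in RT_FAP41BBL against control, and Tnf, Il1rn and Ptgs2 for radiotherapy averaged over both agonist states. Il1a, Il6 and Lcn2 had the fewest counts per library, 11 to 267, and every value rests on 3 libraries per group. Where a count moved, the cause was not tested.

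With each library left out in turn, the members past the test numbered 7 to 14 (351 to 1941 of all genes) in RT_FAP41BBL against control, 4 to 10 (805 to 1987) in RT against control, 0 to 1 (0 to 5) in FAP41BBL against control, 0 to 5 (70 to 2305) in RT_FAP41BBL against RT, 0 to 3 (0 to 411) in RT_FAP41BBL against FAP41BBL, 0 to 2 (0 to 269) in the interaction, 4 to 10 (869 to 2046) for radiotherapy averaged and 0 to 7 (2 to 1092) for the agonist averaged.

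With the skeletal muscle score as a covariate, 10 members passed in RT_FAP41BBL against control (14 without the term), and Zc3h12a, Birc3, Nod2 and Cd83 were lost. The members past the test numbered 1 in RT against control, 1 in FAP41BBL against control, 0 in RT_FAP41BBL against RT and 1 in RT_FAP41BBL against FAP41BBL. They numbered 0 in the interaction, 2 for radiotherapy averaged and 0 for the agonist averaged. All genes past the test then numbered 799 in RT_FAP41BBL against control (1404 without the term), 1 in RT against control (1709), 2 in FAP41BBL against control (1), 0 in RT_FAP41BBL against RT (1022), 94 in RT_FAP41BBL against FAP41BBL (168), 0 in the interaction (27), 89 for radiotherapy averaged (1787) and 0 for the agonist averaged (62).

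DESeq2 called 4 members in FAP41BBL against control, 7 in RT_FAP41BBL against RT, 4 in RT_FAP41BBL against FAP41BBL, 3 in the interaction and 12 for the agonist averaged. Of all genes it called 2325 in RT_FAP41BBL against control, 48 in FAP41BBL against control, 2063 in RT_FAP41BBL against RT, 783 in RT_FAP41BBL against FAP41BBL, 639 in the interaction and 894 for the agonist averaged.

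A fit of the 2 compared groups alone gave 6 members in RT against control and 3 in RT_FAP41BBL against FAP41BBL, and 3223 of all genes in RT_FAP41BBL against control, 1064 in RT against control, 0 in FAP41BBL against control and 269 in RT_FAP41BBL against FAP41BBL. With no filter on low counts there was 1 member in FAP41BBL against control, 2 in the interaction and 2 for the agonist averaged, with 9, 102 and 208 of all genes in these 3. RLE factors left 0 members and 32 of all genes for the agonist averaged.

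Same-numbered libraries correlated between -0.344 and 0.432 in their deviations from group means, with 6 of 18 pairs over 0.1, so the numbers were not taken as a pairing. Of the 12 libraries 5 correlated best with one of their own number. With the replicate number as a block, 14 members passed in RT_FAP41BBL against control (1564 of all genes) and 8 in RT against control (1702). There were 3 in RT_FAP41BBL against RT (1172), 1 in the interaction (9) and 0 for the agonist averaged (2).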
